A study of Macaca mulatta with 10 samples.

Results

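The genes described here encode the nuclear subunits of the mitochondrial respiratory chain and of ATP synthase, measured in the liver of brain-dead and living-donor rhesus macaques. Every probe set was taken whose platform annotation gave exactly 1 gene symbol, and that symbol began with NDUFA, NDUFB, NDUFC, NDUFS, NDUFV, UQCR or ATP5, or with COX and a digit, or was SDHA, SDHB, SDHC, SDHD or CYC1. This gave 121 probe sets of 72 genes, of 52865 probe sets on the array and 14133 genes named by it. No level of signal entered the choice. By complex, 42 probe sets of 24 genes belonged to complex I, 4 of 3 genes to complex II, 13 of 7 genes to complex III, 13 of 10 genes to complex IV and 24 of 14 genes to complex V. The symbols also took in 23 probe sets of 13 genes that help to build complexes I and IV (the NDUFAF genes and COX10, COX11, COX15 and COX17 to COX20), and 2 probe sets of ATP5IF1, the inhibitor of ATP synthase. The older symbol ATP5G1 of ATP5MC1 was kept for 2 probe sets whose gene IDs were not found in the reference list, and it was counted as a gene of its own; joined with ATP5MC1 it leaves 71 genes, 70 of them tested, and 13 in complex V. The annotation gave 12 further probe sets more than 1 symbol, which the rule leaves out. NDUFA4 was counted with complex IV, where its protein is now placed.

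The respiratory chain passes electrons from NADH, at complex I, and from succinate, at complex II, through coenzyme Q to complex III, then through cytochrome c to complex IV, where oxygen is reduced to water. Complexes I, III and IV pump protons across the inner mitochondrial membrane, and ATP synthase, complex V, makes ATP as the protons flow back. In the liver this ATP pays for gluconeogenesis, urea synthesis and protein secretion. Of the complexes, I, III, IV and V are built from proteins of both the nuclear and the mitochondrial genome, and complex II from nuclear genes alone. Of 13 mitochondrially encoded subunits, 0 had a probe set with 1 symbol, so only the nuclear part of each complex was measured here.

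Liver RNA of 10 animals was hybridised to an oligonucleotide array of 1 colour, 1 array per animal. In the 5 animals of the brain-dead group brain death was induced by inflating a balloon catheter in the extradural space, and mean arterial pressure was held with fluids and, where given, arginine-vasopressin, dopamine or both for 6 h per the labels (the series' design text has 5 h). The 5 control animals were sedated, anaesthetised and mechanically ventilated for 1 h before the liver was recovered. Livers of both groups were flushed in situ with preservation solution. The groups therefore differed in the time before recovery and in drugs as well as in brain death, and these cannot be told apart. Controls were 3 females and 2 males aged 4 to 20 y, and brain-dead animals were 2 females and 3 males aged 7 to 18 y, with the age of 1 not given. The animals are written below as control 1 to 5 and brain-dead 1 to 5, with values in that order. The numbers name animals and were taken not to pair them, on which the labels say nothing. Values are MAS5 signals, a linear intensity in arbitrary units scaled by the authors to a common trimmed mean on every array, and levels of different probe sets are not comparable. A log2 change is the mean log2 signal of brain-dead animals minus that of controls, with limma's standard error (SE).

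Across all 26653 probe sets tested, 1627 passed an adjusted p of 0.05 (limma, Benjamini-Hochberg), 724 higher and 903 lower in brain death. Hepatocyte markers were present: 7 of 12 listed genes had a named probe set, all 7 were tested, and their summed signal was 674181 to 855471 in controls and 601659 to 658038 in brain-dead animals, with none at 0. By their brightest probe sets all 7 had a change below 0, with a median of −0.30 and 0 called. Of all 15 hepatocyte probe sets tested, 1 was called higher, where 2.72% of all probe sets were. Of 8 endothelial genes tested 7 were below 0, with a median of −0.50, and of 9 macrophage and monocyte genes 7 were, with a median of −0.33, with 0 called in either list by the brightest probe sets. Of all 10 macrophage and monocyte probe sets tested, 1 was called lower, where 3.39% of all probe sets were. The summed signal of 9 endothelial markers was 18549 to 34926 in controls and 16304 to 27504 in brain-dead animals, and that of the 9 macrophage and monocyte markers, of 10 listed, 55157 to 105437 and 52824 to 101330. The summed signal of 7 neutrophil markers of 10 listed was 1120 to 6382 in controls and 8110 to 57039 in brain-dead animals. Of 5 neutrophil genes tested 3 were above 0 and 2 below, and the 2 called higher were S100A8 and S100A9, the brightest of the list. Of 4 T, B and NK cell genes tested 3 were above 0, with a median of 0.24. All 3 red cell genes were below 0, with a median of −0.70. Of 4 genes of stellate cells and fibroblasts 3 were below 0, with a median of −0.13, and of 2 cholangiocyte genes 1 was. In these further lists 0 were called. The part of cell composition in the results below was not tested, and in whole liver fewer cells of a type and less RNA per cell cannot be told apart.

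Brain death left the genes of the respiratory chain and ATP synthase with few changes that passed the test. Of the 107 member probe sets bright enough to test, which came from 71 genes, 1 was higher in brain death at an adjusted p under 0.05 and 0 were lower. Of all probe sets tested, 6.1% were called, 2.72% higher and 3.39% lower. At an unadjusted p under 0.05 there were 10 member probe sets (9.35%), against 23.7% of all probe sets. The called probe set reads COX20, an assembly factor of complex IV, so that none of the 86 tested probe sets of subunits proper was called. Counting a gene once, by its brightest probe set, 1 of 71 genes was called, and with the mean of each gene's probe sets 0 were.

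Most members nonetheless lay slightly on the lower side. The change was below 0 for 80 of 107 member probe sets (74.8%), against 50.2% of all. Their median log2 change was −0.16, with quartiles of −0.36 and −0.011, and a median fold of 0.893, against a median of −0.003 over all probe sets. Without control 1 the median was −0.29, with 86 of 107 below 0, and without brain-dead 1 it was −0.049, with 63 of 107 below 0, so its size rested on those animals. Without both of them it was −0.18, with 81 of 107 below 0 and 0 called. Median centring of the arrays in place of the deposited scale moved the member median to −0.094 and that of all probe sets to 0.066. Members moved together by array, so their number is not a number of independent observations. The median member signal of an animal, relative to the control mean, was −0.56 to 0.32 in controls and −0.51 to 0.20 in brain-dead animals on the log2 scale. These groups overlapped, with a pooled SD within groups of 0.33.

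**Figure D1:**
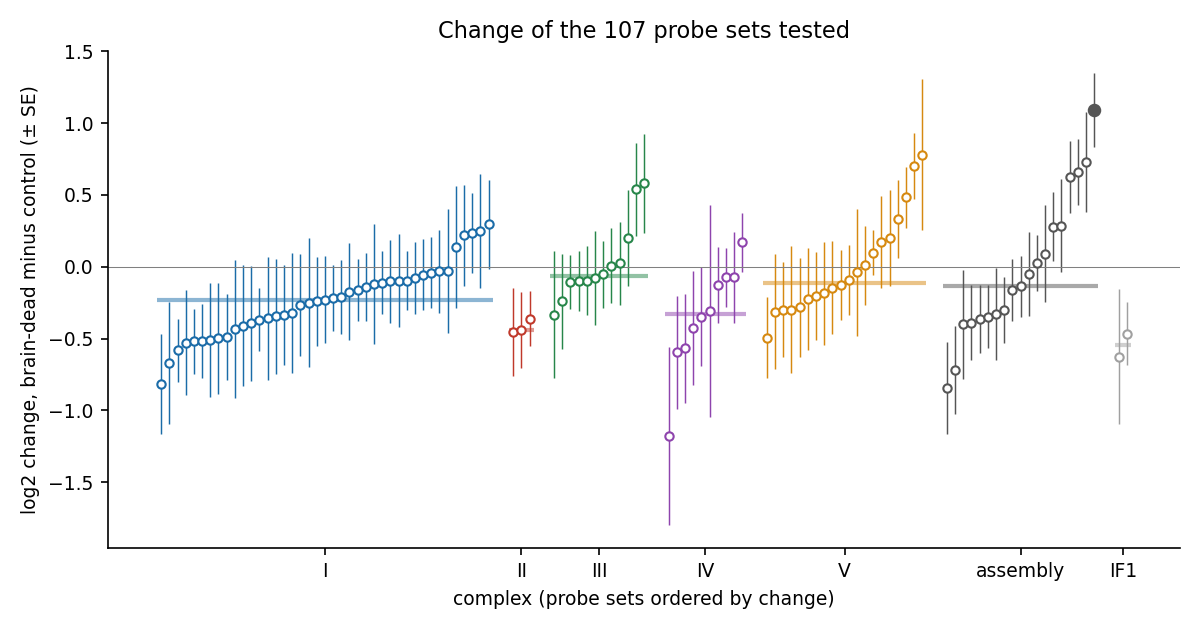
Log2 change (brain-dead minus control) of each of the 107 member probe sets tested, with the SE as a bar, grouped by complex and ordered by size within it; horizontal bars are medians, IF1 is ATP5IF1, and the filled point is the probe set past an adjusted p of 0.05. The filled point is COX20 at 1.09, and 36 of 41 points of complex I lie below 0.

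The precision of single genes was limited. The median SE of a member's log2 change was 0.31 (0.16 to 0.74), against 0.28 over all probe sets, and for 59 of 107 members the 95% interval lay within a 2-fold change in either direction. For 38 members the interval reached below a halving of signal, and for 11 above a doubling. A p above the threshold therefore does not show that a subunit was level between the groups.

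Complex I takes electrons from NADH and is the entry point with the most subunits. Its 41 tested probe sets had a median log2 change of −0.23, with 36 below 0 and 0 called. That median was −0.36 without control 1 and −0.063 without brain-dead 1. NDUFC1, an accessory subunit of the membrane arm, had the most negative change of the complex. NDUFC1 signals were 9730, 25738, 19276, 24992 and 22134 in controls and 5250, 19529, 10631, 12811 and 11290 in brain-dead animals. The groups overlapped: 4 of 5 brain-dead values lay within the control range, which control 1 widens downward, and brain-dead 2 lay above control 3 as well. The mean was 20374 ± 6475 (SD, n = 5) in controls and 11902 ± 5129 (SD, n = 5) in brain death, a log2 change of −0.82 ± 0.35 (SE) with an adjusted p of 0.172 in limma. The largest positive change was that of NDUFV3, an accessory subunit of the NADH-binding module, at 0.29 ± 0.31 (SE), with 364 ± 149 (SD, n = 5) in controls and 423 ± 86.5 (SD, n = 5) in brain death.

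The core of complex I holds the flavin and iron-sulfur clusters along which electrons travel. NDUFV1, which binds NADH and the flavin, had 6683, 6792, 6874, 8989 and 11390 in controls and 6284, 7053, 7232, 10820 and 5665 in brain-dead animals. These ranges nearly coincided, at a log2 change of −0.14 ± 0.23 (SE). NDUFS1, the largest iron-sulfur subunit, had 9758, 8885, 6298, 7497 and 6247 against 8715, 7990, 7043, 6280 and 5953, at −0.10 ± 0.21 (SE). NDUFS3, a subunit of the quinone-side arm, had a log2 change of −0.10 ± 0.29 (SE), and NDUFS8, which carries iron-sulfur clusters near the quinone site, had −0.24 ± 0.31 (SE). NDUFV2, an iron-sulfur subunit of the NADH module, had 0.22 ± 0.35 (SE) in its brightest probe set and −0.17 ± 0.34 (SE) in another. The sign turned in 1 of 26 alternatives for the brightest NDUFV2 probe set and in 3 for NDUFS3. None of these core changes passed the test, and adjusted p in limma was 0.678 or higher for each of these brightest probe sets.

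NDUFS7, which carries the last iron-sulfur cluster before coenzyme Q, differed by probe set. Its brighter probe set had 4644, 11729, 8084, 10282 and 10885 in controls and 4226, 10064, 7693, 9966 and 6806 in brain-dead animals, a log2 change of −0.23 ± 0.30 (SE). The dimmer had 1762, 2318, 1449, 2472 and 2185 against 1345, 1243, 1045, 1740 and 1400, a log2 change of −0.58 ± 0.22 (SE) with an adjusted p of 0.129. In the dimmer probe set 4 of 5 brain-dead values lay below every control, and brain-dead 4 lay among them. NDUFS6, a subunit needed for the late steps of complex I assembly, had log2 changes of −0.25 ± 0.45, −0.52 ± 0.26 and −0.52 ± 0.23 (SE) over 3 probe sets, with adjusted p from 0.184 to 0.782.

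Complex II, succinate dehydrogenase, joins the citric acid cycle to the chain, and its 3 tested probe sets were all below 0 without passing the test. SDHA, the flavin subunit that oxidises succinate, had 22330, 20290, 15895, 24458 and 22893 in controls and 18928, 13864, 16217, 19211 and 14123 in brain-dead animals. The values of 4 controls lay above every brain-dead animal, and control 3 lay within their range. The log2 change was −0.36 ± 0.19 (SE), with an adjusted p of 0.266 in limma and a 95% interval of −0.77 to 0.05. SDHB, the iron-sulfur subunit, had 13325 ± 4444 (SD, n = 5) and 9747 ± 3517 (SD, n = 5), a log2 change of −0.46 ± 0.31 (SE). SDHC, a membrane anchor, had 8252 ± 2296 (SD, n = 5) and 6028 ± 1520 (SD, n = 5), a log2 change of −0.44 ± 0.26 (SE). The other anchor, SDHD, is not analysed here. SDHA and SDHC kept a change below 0 in each of 26 alternatives, as did SDHB.

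Complex III, which passes electrons from coenzyme Q to cytochrome c, showed no common direction. Of 12 probe sets tested, 7 were below 0 and 5 above, with a median of −0.067, which was 0.026 without control 4 and 0.0018 under median centring. CYC1, cytochrome c1, had 8082, 20522, 12343, 14815 and 15174 in controls and 9541, 17392, 12824, 16292 and 13664 in brain-dead animals. All brain-dead values lay inside the wider control range, at a log2 change of 0.0083 ± 0.26 (SE), with a 95% interval of −0.55 to 0.56. UQCRFS1, the Rieske iron-sulfur protein, had 0.20 ± 0.33 (SE). UQCRC1 and UQCRC2, the core proteins, had −0.11 ± 0.19 and −0.053 ± 0.23 (SE) in their brightest probe sets, and another UQCRC1 probe set had 0.54 ± 0.32 (SE). The extremes were a probe set of UQCRB, which helps to form the quinone site, at 0.58 ± 0.35 (SE), and one of the small subunit UQCR11 at −0.33 ± 0.44 (SE). Both had a brain-dead 1 value far below the other 4. The other 2 tested UQCRB probe sets had −0.097 ± 0.24 and −0.24 ± 0.33 (SE), and the other UQCR11 probe set had 0.023 ± 0.29 (SE). Of 26 alternatives, the sign turned in 7 for CYC1, in 3 for UQCRC2 and in 1 each for UQCRC1, UQCRFS1 and UQCR11.

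Complex IV, cytochrome c oxidase, had 9 of 10 tested probe sets below 0 and a median of −0.33, which was −0.53 without control 1 and −0.16 without brain-dead 1. COX5A, a nuclear subunit listed here with the core subunits, had 7917, 20079, 13983, 21841 and 17747 in controls and 7624, 20010, 17636, 17102 and 14552 in brain-dead animals. The mitochondrially encoded COX1, COX2 and COX3 were not measured. The COX5A groups overlapped over most of their range, with a log2 change of −0.073 ± 0.32 (SE). COX6B1, on the intermembrane side, had −0.35 ± 0.35 (SE). COX7B had −0.57 ± 0.38, NDUFA4 −0.43 ± 0.40 and COX8A −0.13 ± 0.26 (SE). Without brain-dead 1 the change was −0.029 for COX6B1, −0.24 for COX7B and −0.045 for NDUFA4, and the sign turned in 2 of 26 alternatives for COX8A and in 3 for COX5A. COX7A2, the form of that subunit found in most tissues, had 0.17 ± 0.21 and −0.074 ± 0.20 (SE) in its 2 probe sets, and COX7A1, the form typical of heart and muscle, had −0.59 ± 0.39 (SE), or −0.21 without brain-dead 1. Its highest value, 17021, was that of control 4, whose array had high signals of muscle genes (below). COX5A, COX6B1 and COX7B were also highest in control 4. The part of muscle RNA in the COX7A1 values was not tested. No test of the difference between isoforms was made. COX4I1, COX5B and COX6A1 are not analysed here.

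NDUFA4L2, a paralogue of NDUFA4 known for its induction by hypoxia, had the most negative change of the probe sets tested. NDUFA4L2 signals were 400, 643, 555, 141 and 251 in controls and 194, 208, 324, 238 and 27.3 in brain-dead animals. Brain-dead 5 was far below the rest and control 4 was below 4 of 5 brain-dead animals. The log2 change was −1.18 ± 0.62 (SE), with an adjusted p of 0.270 in limma and a 95% interval of −2.52 to 0.16. COX4I2, the subunit 4 isoform known as responsive to low oxygen in lung, was the 1 member gene with no probe set bright enough to test, at 42.6 ± 22.4 (SD, n = 5) in controls and 76.7 ± 61.4 (SD, n = 5) in brain death.

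COX6A2, the form of subunit 6A typical of heart and skeletal muscle, was high in 1 animal. COX6A2 signals were 170, 212, 140, 1651 and 275 in controls and 500, 878, 110, 217 and 75.3 in brain-dead animals. Control 4 stood above every other animal. The array of control 4 also had 11736 for MB (myoglobin), against 16.2 to 173 on the other 9 arrays, and 1372 for a probe set of CKM (muscle creatine kinase), against 23.1 to 367. The summed signal of 5 striated muscle markers, of 7 listed, was 290 to 13389 in controls and 300 to 753 in brain-dead animals, with none at 0 and all 5 below the filter of the test. Their part in the COX6A2 values was not tested. The log2 change of COX6A2 was −0.31 ± 0.74 (SE), the widest error among the probe sets tested, and its sign turned in 3 of 24 alternatives.

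Complex V had changes on both sides of 0. Its 20 tested probe sets had a median of −0.11, with 12 below 0 and 8 above, and the median was 0.094 without brain-dead 1. ATP5F1B, the catalytic beta subunit, had 32923, 43471, 30743, 37940 and 39884 in controls and 38212, 41589, 36594, 43348 and 37244 in brain-dead animals. All brain-dead values lay inside the control range, and the log2 change was 0.10 ± 0.16 (SE), the smallest error among the probe sets tested, with a 95% interval of −0.24 to 0.44. ATP5F1C, the rotating gamma shaft, had −0.13 ± 0.24 (SE) in its brighter probe set and −0.49 ± 0.28 (SE), the most negative change of the complex, in its dimmer. ATP5PB, of the peripheral stalk, had the most positive at 0.78 ± 0.53 (SE), with 46.3 in control 2 and 133 to 416 in the other controls against 244 to 534 in brain-dead animals. ATP5F1A is not analysed here.

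The ring through which protons pass is made of the c subunit, encoded by ATP5MC1, ATP5MC2 and ATP5MC3. Of the 107 probe sets tested, 1 had groups that did not overlap, a probe set of ATP5MC1 that was higher in brain death. Its signals were 808, 641, 1047, 585 and 1225 in controls and 1257, 1274, 1344, 1501 and 1355 in brain-dead animals. The highest control was just under the lowest brain-dead animal. Of all probe sets tested, 3.33% did not overlap in that direction and 3.6% in the other, against 1 and 0 of 107 members. The log2 change was 0.70 ± 0.23 (SE), with an adjusted p of 0.0875 in limma, short of the threshold.

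A second ATP5MC1 probe set had 2939, 4575, 3644, 2384 and 3278 in controls and 4320, 4624, 4273, 4640 and 5146 in brain-dead animals. Here control 2 lay among the brain-dead values, and the log2 change was 0.48 ± 0.21 (SE), with an adjusted p of 0.183. A probe set under the older symbol ATP5G1 had 11798 ± 4148 (SD, n = 5) in controls and 10201 ± 3681 (SD, n = 5) in brain death, a log2 change of −0.21 ± 0.31 (SE) with an adjusted p of 0.728, the opposite sign. It was brighter than both ATP5MC1 probe sets, so it would stand for the gene if the symbols were joined. Of the other c subunit genes, ATP5MC2 had −0.30 ± 0.33 (SE) and ATP5MC3 0.0087 ± 0.28 (SE). The sign for ATP5MC3 turned in 8 of 26 alternatives. The differences between these genes were not tested. ATP5IF1, which blocks reverse running of ATP synthase when the membrane potential falls, had −0.63 ± 0.47 and −0.47 ± 0.22 (SE) in its 2 probe sets, with adjusted p of 0.450 and 0.214.

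COX20, which chaperones the mitochondrially encoded COX2 protein into complex IV, was the single call among the members, and its 3 probe sets went different ways. The called probe set had 2829, 2599, 2902, 5063 and 3528 in controls and 9781, 4852, 6316, 6103 and 9072 in brain-dead animals. Control 4 lay above brain-dead 2, and every other brain-dead animal lay above every control. The mean was 3384 ± 1000 (SD, n = 5) against 7225 ± 2101 (SD, n = 5), a log2 change of 1.09 ± 0.26 (SE), 2.13-fold, with an adjusted p of 0.0281 in limma. A second probe set had 1716, 3895, 3346, 4372 and 3320 in controls and 1305, 3762, 2792, 3074 and 2458 in brain-dead animals, a log2 change of −0.33 ± 0.32 (SE) with an adjusted p of 0.571.

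The third COX20 probe set was too dim for the test and was the reverse of the first. Its signals were 191, 194, 199, 250 and 180 in controls and 119, 176, 93.7, 47.7 and 116 in brain-dead animals. Every brain-dead value lay below every control, and in limma without the filter the log2 change was −0.99 ± 0.37 (SE) with an adjusted p of 0.207. The mean of the 2 tested probe sets had a log2 change of 0.38 with an adjusted p of 0.271. The call on the first probe set also rested on single animals: its adjusted p was 0.0605, 0.0744 and 0.0690 without control 1, 2 or 3, and 0.0545, 0.0515, 0.0508 and 0.0725 without brain-dead 1, 3, 4 or 5. It was 0.0968 without both arrays numbered 1 and 0.0652 with sex and age as covariates. The log2 change stayed between 0.91 and 1.25 over all 26 alternatives.

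**Figure D2:**
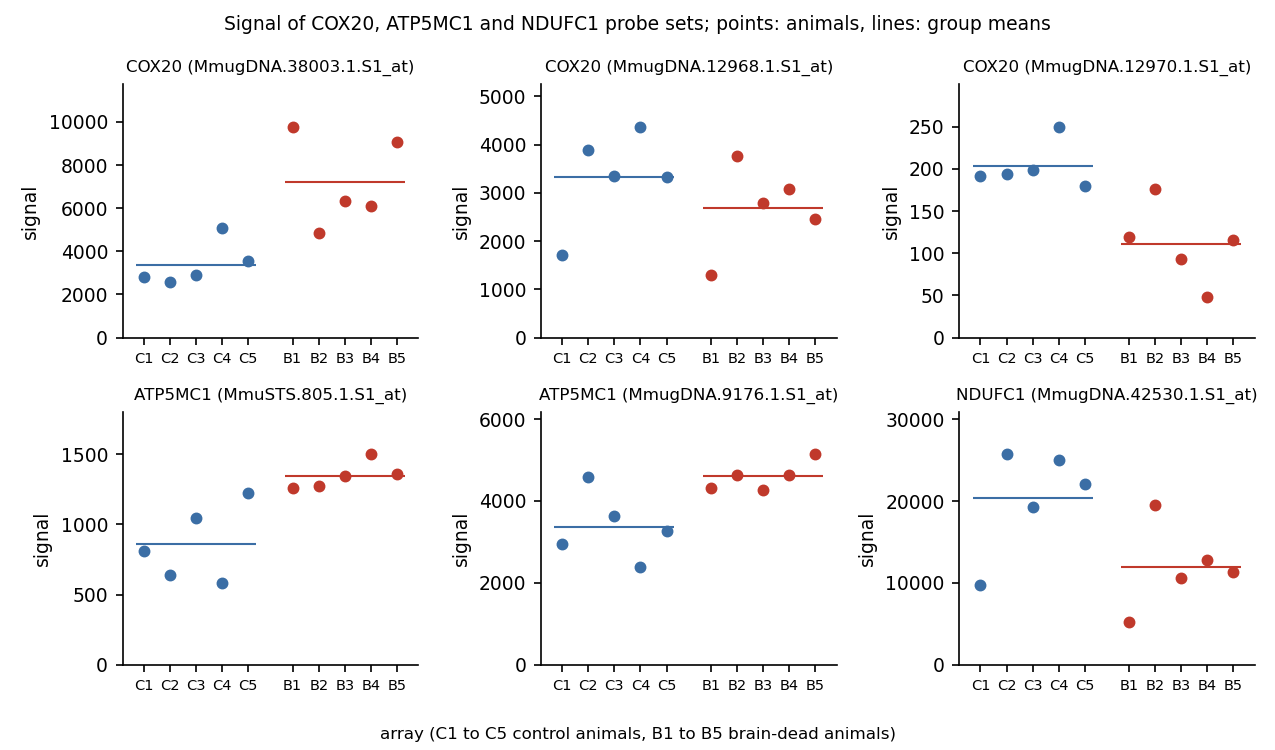
MAS5 signal (linear axis from 0) on each array for the 3 probe sets of COX20, the 2 of ATP5MC1 and NDUFC1; blue points are control animals C1 to C5, red points brain-dead animals B1 to B5, and lines are group means. The first COX20 panel averages 7225 in brain-dead animals and 3384 in controls, whereas in the third every brain-dead point lies below every control point.

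Among the other assembly factors in the set, NDUFAF5, an enzyme that modifies a complex I subunit during its assembly, was on the higher side. One of its probe sets had 421, 451, 442, 777 and 454 in controls and 578, 761, 898, 958 and 769 in brain-dead animals. Control 4 lay within the brain-dead range and the other 4 controls lay below it. The log2 change was 0.66 ± 0.23 (SE) with an adjusted p of 0.104, and that of another was 0.62 ± 0.25 (SE) with an adjusted p of 0.152. Without control 4 the adjusted p of these probe sets was 0.0310 and 0.0327.

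COX18, which inserts part of the COX2 protein into the membrane, had the most negative change of the assembly factor probe sets tested. COX18 signals were 3147, 2567, 2974, 2278 and 2904 in controls and 1996, 2740, 1635, 1460 and 657 in brain-dead animals. Of the brain-dead animals, 4 lay below every control and brain-dead 2 lay within the control range. The log2 change was −0.84 ± 0.32 (SE), with an adjusted p of 0.131 in limma. COX11, which delivers copper to complex IV, had −0.72 ± 0.30 (SE) in its dimmer probe set, with an adjusted p of 0.174. Over the 19 assembly factor probe sets tested, 11 were below 0, with a median of −0.14.

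Control 1 and brain-dead 1 had the lowest signals for much of the respiratory chain, each within its own group. The median deviation of the 107 members from their own medians over the 10 arrays was −0.60 on the log2 scale in control 1 and −0.40 in brain-dead 1, against −0.24 to 0.21 on the other 8 arrays and −0.04 to 0.07 on any array for all probe sets. Control 1 was the lowest control in 64 of 107 members (59.8%; 21.6% of all probe sets), and brain-dead 1 the lowest of its group in 55 (51.4%; 17.4% of all). Both held in 51 members (47.7%), against 9.17% of all probe sets tested. It was more frequent in bright probe sets: 39 of the 53 brighter members and 12 of the 54 dimmer members. Members were brighter than most probe sets: 79 of 107 passed a filter at the 75th percentile, against 13404 of 26653. The 9.17% was not matched for signal.

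The complexes shared this pattern to different degrees. Control 1 and brain-dead 1 had medians of −0.57 and −0.81 in complex I, −0.52 and −0.76 in complex IV, and −0.67 and −0.85 in complex V. In complex II, with 3 probe sets, they had −0.63 and −0.59, and there brain-dead 5 was lower at −0.85. In complex III they had −0.68 and −0.26, and in the assembly factors −0.33 and −0.16. It was not particular to the respiratory chain: the 91 tested probe sets of mitochondrial ribosomal proteins had −0.95 and −0.53, and the 54 of cytosolic ribosomal proteins −0.99 and −0.79. The median log2 change between the groups was 0.18 for the mitochondrial and 0.093 for the cytosolic ribosomal proteins, with 0 called in either set.

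**Figure D3:**
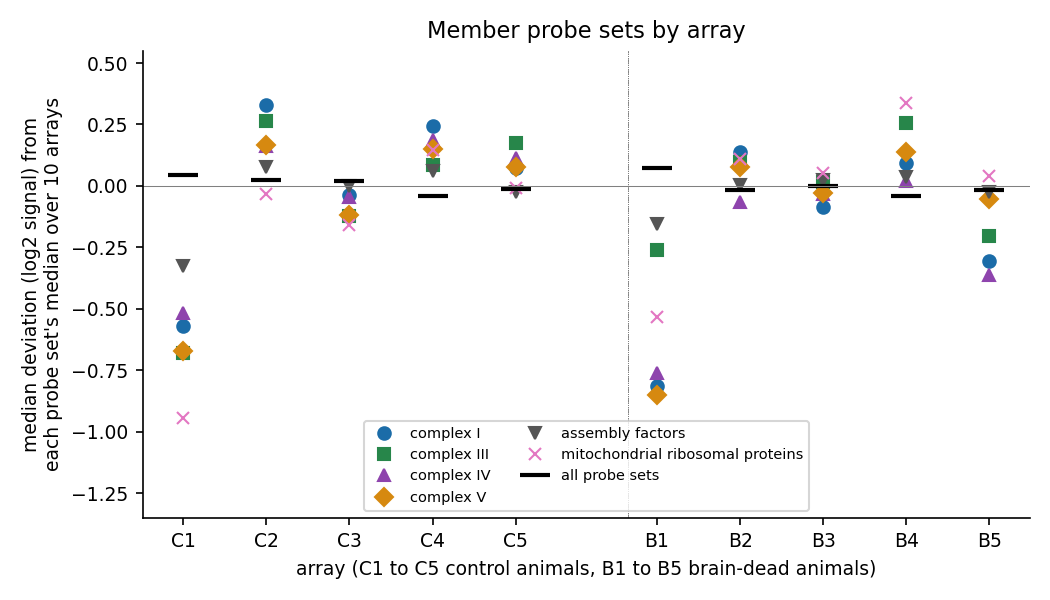
Median deviation of log2 signal from each probe set's median over the 10 arrays, by array (C1 to C5 controls, B1 to B5 brain-dead animals), for the probe sets of complexes I, III, IV and V, of the assembly factors and of mitochondrial ribosomal proteins; the black bar is the median of all probe sets tested. C1 and B1 lie lowest of their groups in each set shown other than all probe sets. The black bars lie between −0.04 and 0.07, and there C1 and B1 are the highest of their groups.

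Within the subunits listed as core the low arrays did not reach every gene. NDUFV2 had 4828 in control 1 and 10054 to 16568 in the other controls, and UQCRFS1 had 6408 and 13638 to 24382. NDUFS1 in contrast had its highest value of all animals, 9758, in control 1, and ATP5F1B and SDHA had control 1 within the range of the other controls. Probe sets of the same gene could differ in this. Of 30 genes with several probe sets tested, 6 had control 1 as the lowest control in one and the highest in another.

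NDUFS6 is an example: its brightest probe set had 2962, 9767, 7182, 8834 and 8492 in controls and 1774, 8426, 6897, 9790 and 6508 in brain-dead animals, lowest in control 1 and brain-dead 1. Another NDUFS6 probe set had 2670, 1323, 1694, 1519 and 1688 in controls and 1555, 1238, 1040, 1045 and 1210 in brain-dead animals, highest in the same animals of each group. Over these 30 genes, the changes of a gene's probe sets had the same sign in 18 and opposite signs in 12.

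**Figure D4:**
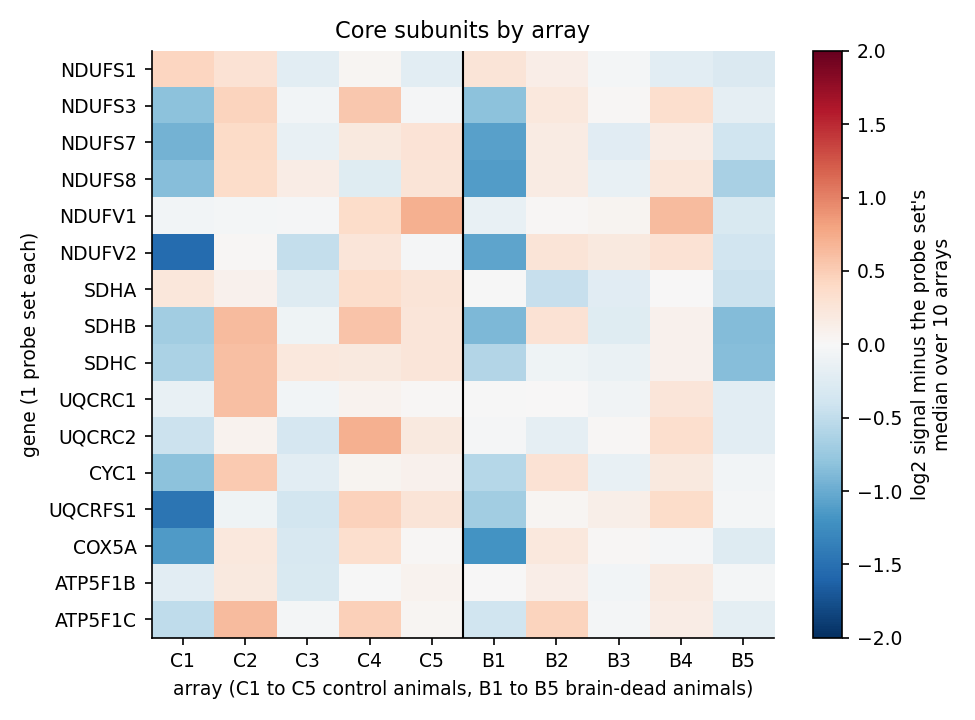
Log2 signal of 16 nuclear subunits listed as core, minus each probe set's median over the 10 arrays. Rows are genes, each by its brightest probe set. Columns are animals, C1 to C5 controls left of the line and B1 to B5 brain-dead animals right of it. Blue is lower and red higher. Columns C1 and B1 are blue for NDUFV2, UQCRFS1 and COX5A, and not for NDUFS1 or SDHA.

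**Figure D5:**
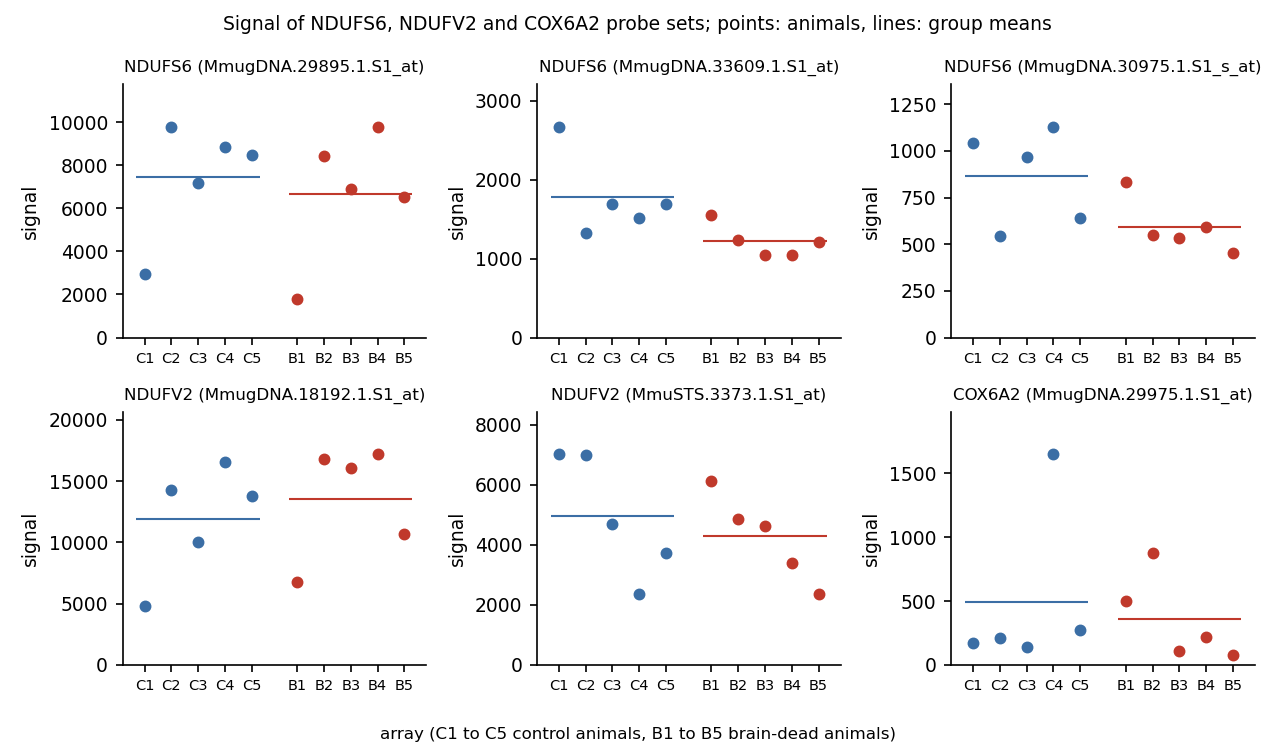
MAS5 signal (linear axis from 0) on each array for the 3 probe sets of NDUFS6, 2 of NDUFV2 and that of COX6A2; blue points are controls C1 to C5, red points brain-dead animals B1 to B5, and lines are group means. C1 is the lowest control in the first NDUFS6 panel at 2962 and the highest in the second at 2670, and C4 stands apart for COX6A2 at 1651.

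Control probe sets of the array differed on these arrays too. The signal of the 3′ GAPDH control was 33855 in control 1 and 35838 in brain-dead 1, against 46135 to 76685 on the other arrays, and that of the bacterial control dap was 34809 and 26704, against 13716 to 22023. The 3′ to 5′ ratios are a measure of RNA and label quality. For actin they were 1.24 in control 1 and 1.15 in brain-dead 1, in a range of 1.15 to 1.41 over all arrays. Brain-dead 1 thus had the lowest actin ratio of all arrays, while control 1 lay within the range of the others. The GAPDH ratio did not set either array apart, at 1.03 and 0.932 in a range of 0.850 to 1.25. The part of labelling or RNA input in the member values was not tested. Without these 2 arrays the median within-group SD of members dropped from 0.52 to 0.29 in controls and from 0.48 to 0.30 in brain death on the log2 scale. The median SE of a change was then 0.24, 81 of 107 intervals lay within 2-fold, 14 members had an unadjusted p under 0.05 against 20.7% of all probe sets, and 0 were called.

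The sexes were compared by an interaction of brain death with sex. It was called in 0 of 107 members and 0% of all probe sets, with 4 of 107 members (3.74%) at an unadjusted p under 0.05 against 3.81% of all. The lowest of these was COX6A2, with an unadjusted p of 0.000751 in limma and an adjusted p of 1.00. The median SE of the interaction was 0.60, so only large differences between the sexes were detectable.

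Genes around the chain were described by lists, each gene by its brightest probe set. Of 36 further assembly factors tested, 1 fell and 0 rose, where 3.39% of all probe sets were called lower and 2.72% higher. The one that fell was UQCC5, a factor for complex III, with 1417, 1396, 1506, 1361 and 1071 in controls and 690, 803, 699, 838 and 785 in brain-dead animals. These groups did not overlap, and the log2 change was −0.82 ± 0.18 (SE) with an adjusted p of 0.0222 in limma. Another UQCC5 probe set had −0.41 ± 0.36 (SE). The call was lost without control 2, control 3 or brain-dead 3, at adjusted p of 0.0545, 0.0586 and 0.0523, without both arrays numbered 1 at 0.0716, and with sex and age as covariates at 0.0664. A probe set of SURF1, in the same list, also had groups that did not overlap, but was higher in brain death. Its log2 change was 0.69 ± 0.20 (SE), short of the threshold at an adjusted p of 0.0570 in limma.

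Of 17 genes of coenzyme Q synthesis, mobile carriers and other quinone reductases, 1 fell and 0 rose, beside 3.39% of all probe sets called lower and 2.72% higher. COQ10A, a coenzyme Q-binding protein needed for its function in the chain, had 1511, 3270, 1349, 2022 and 1185 in controls and 877, 842, 755, 595 and 481 in brain-dead animals. Every brain-dead value lay below every control, and the log2 change was −1.33 ± 0.29 (SE) with an adjusted p of 0.0207. Without brain-dead 4 or 5 the adjusted p was 0.0501 and 0.0545, and with sex and age as covariates it was 0.0510. The 7 citric acid cycle genes had 0 calls and a median of −0.11, and the 5 genes of ATP export, uncoupling and inhibition, of which ATP5IF1 is also a member above, 0 calls and a median of −0.14.

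Of 15 genes that control transcription of respiratory chain genes or of mitochondrial DNA, 0 were called, 11 were above 0 and the median was 0.26. TFAM, which packages and transcribes mitochondrial DNA, had 5639 ± 1291 (SD, n = 5) in controls and 7950 ± 1151 (SD, n = 5) in brain death in its brightest probe set, a log2 change of 0.51 ± 0.21 (SE) that did not pass the test. PPARGC1A, the coactivator PGC-1alpha, had 7810, 5308, 1732, 3654 and 2624 in controls and 2202, 1562, 3490, 2418 and 3506 in brain-dead animals, overlapping groups with a log2 change of −0.55 ± 0.38 (SE). Of 16 genes of the mitochondrial envelope, import and protein quality, 0 were called by their brightest probe set, 12 were above 0 and the median was 0.18. A dimmer probe set of OPA1, which fuses and shapes the inner membrane, had −1.76 ± 0.47 (SE) with an adjusted p of 0.0444. The other 4 tested OPA1 probe sets had 0.12, 0.029, −0.53 and −0.53, and the call was lost in 15 of 24 alternatives. It was lost without any 1 of control 1, 2, 4 or 5 or brain-dead 1, 2, 3 or 4, at adjusted p of 0.0628 to 0.109.

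The 14 member probe sets below the filter, of NDUFA2, SDHC, UQCRB, COX4I2, COX5A, ATP5F1E, ATP5G1, ATP5MG, ATP5PO, COX20, NDUFAF5 and NDUFAF7, included 2 each of COX5A and NDUFAF7. In limma without the filter 6 of them were below 0, and the lowest adjusted p among them was that of COX20, 0.207. Over all 121 member probe sets this fit had 86 below 0 and a median of −0.14, with the COX20 call as the single one.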

How the data were processed

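Liver RNA of 5 brain-dead and 5 control rhesus macaques was measured on 1 array per animal. The values deposited by the authors are linear intensities, computed with MAS5 per the submitters' processing notes (version not given in the sources used here). Its 2% trimmed mean was 1000 on every array, and array medians lay between 175 and 227, which limits the precision at low signal. The members and gene lists were chosen with earlier results of these data known.

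Signals were put on a log2 scale with no pseudocount and no further normalization. The 99 control probe sets were left out, and 26653 probe sets remained that exceeded the array median on 5 or more of the 10 arrays. Groups were compared with limma 3.58.1 in R 4.3.3 (lmFit, eBayes with trend), p-values were adjusted over those probe sets by Benjamini-Hochberg, and 0.05 was the threshold. Nothing in the labels ties animals to batches. Symbols came from the platform annotation of 2016, and 119 of 121 members were found in the reference list of genes, while 2 probe sets keep the older symbol ATP5G1. Where a gene had more than 1 probe set, the brightest stood for it. Named genes were members past the threshold, the largest change in each direction per complex, core subunits, isoform pairs and list genes past the threshold; other probe sets of those genes and the remaining members at an unadjusted p under 0.05 were named after their values were seen. On simulated data of 26653 probe sets, the test recovered 23% of 100 changes of log2 size 1 and 88% of 100 of size 2, with 5 false of 116 calls. Changes there were sparser than the 1627 calls of the data, and probe sets were drawn independently, unlike the members, which moved together by array. These shares are therefore not the power of the test for the members. Replicate numbers were taken not to pair animals, since the labels do not say so. The deviations of same-numbered arrays correlated at 0.0643 to 0.380, which does not decide whether the numbers stand for anything shared. Alternatives were other scalings, pseudocounts, filters, covariates, limma settings, thresholds and leaving out arrays. Python 3.11.15, pandas 2.3.3, data.table (version 1.17.8) and matplotlib 3.10.9 were used.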

Additional observations from a re-analysis of the deposited data

Results flagged for a closer look

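In 92 groups of 5 values checked, 12 had a value far from the rest of its group by Dixon's criterion at 95%. Chance gives about 1 in 20 where groups are independent and chosen without regard to their values. These groups shared arrays, and some probe sets were named for the largest change, so 12 of 92 cannot be set against that rate. Brain-dead 1 was far below its group in the log2 signal of COX7A1 (11.39), UQCR11 (11.93) and UQCRB (8.371), and in the median deviation of complex V (−0.8521). Control 1 was far below its group in NDUFA4 (13.28), UQCR11 (12.65) and the median deviation of the assembly factors (−0.326). Control 4 was far above the other controls in COX6A2 (10.69 on the log2 scale), and control 2 in UQCRC1 (14.65). Brain-dead 5 was far below its group in NDUFA4L2 (4.77), brain-dead 3 in NDUFV3 (8.094), and control 3 in the called probe set of OPA1 (8.201). The cause of these values was not tested.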

How the results depend on the processing

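The number of members higher in brain death, 1 as reported, was 0 with sex and age as covariates (which leaves out the brain-dead animal of unknown age), 0 without both arrays numbered 1 and 0 at a threshold of 0.01. It was 2 with array weights and 2 at a threshold of 0.1, and 0 to 3 over leaving out each array in turn, with 0 lower in each of these. With a replicate block 1 member was lower, NDUFC1 at an adjusted p of 0.0148, and COX20 was still called. The correlations of deviations of same-numbered arrays were 0.380, 0.0643, 0.128, 0.0889 and 0.128, and 1 of 5 control and 2 of 5 brain-dead arrays correlated best with their own number. With the mean of a gene's probe sets 0 genes were called. The block raised the calls over all probe sets from 1627 to 3013, and leaving out both arrays numbered 1 lowered them to 674. It also lowered the median SE of members from 0.31 with no block to 0.19 with the block. With the block 25 members had an unadjusted p under 0.05 in limma, against 28.8% of all probe sets. The median change of all members stayed below 0, at −0.29 to −0.049 over leaving out each array. Those of complexes I, II and IV and of the assembly factors stayed below 0 in each of 24 alternatives, complex III was above 0 in 4 and complex V in 1. Of the 35 named probe sets of members that were not called, 24 kept their sign in every alternative run. Low signal and 5 animals a group limit single genes.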
